A study of Arabidopsis thaliana with 16 samples.

Results

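Wild-type cells marked by the CYCD6;1 reporter were compared with cells marked by the WOX5 reporter, both sorted from root tips of Arabidopsis thaliana. The members are all 33201 loci of the deposited expression table, read in the population C6 (GFP-positive cells of the pCYCD6:GUS-GFP line, wild type) and in the population W5S (GFP-positive cells of the pWOX5:erGFP line). Each population was made of 4 libraries from 5-day-old seedlings, so that 8 of the 16 samples of the series enter. The other 8 are W5NS, the GFP-negative cells of the pWOX5:erGFP line, and w5C6, the GFP-positive cells of pCYCD6:GUS-GFP in the wox5 mutant, and their values stand beside the compared ones as context. The deposited table holds 1 pooled value per locus and population. It is read as FPKM, that is, fragments corrected for transcript length and for the size of the library. No spread between libraries could therefore be given and no test was run, and every difference below is a difference between 2 pooled values. C6 and W5S also come from different reporter lines, so cell type and line cannot be told apart in any of them. Fewer cells of a type and less RNA per cell cannot be told apart either.

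The root stem cell niche is organised around the quiescent centre (QC), a small group of rarely dividing cells that keeps the surrounding initials undifferentiated and is specified by the homeodomain factor WOX5. The cortex endodermis initial (CEI) lies next to it. Its daughter divides along the root axis under the GRAS factors SHR and SCR, which switch on the D-type cyclin CYCD6;1, and the products become cortex and endodermis. The endodermis later lays down the Casparian strip, a lignin band that seals the space between cells. The comparison asks which genes separate the cells sorted by the CYCD6;1 reporter from those sorted by the WOX5 reporter. Whether these sorts hold only the initial and only the QC was not tested, and markers of other cell types are given below.

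Between C6 and W5S the reporter genes followed their labels. WOX5 (AT3G11260) stood at 206 FPKM in W5S and 18.4 FPKM in C6, and CYCD6;1 (AT4G03270) at 9.75 FPKM in C6 and 0.828 FPKM in W5S. WOX5 still read 42.1 FPKM in the GFP-negative W5NS cells, and CYCD6;1 read 7.02 FPKM there. In w5C6, also sorted by its reporter, CYCD6;1 read 7.01 FPKM, level with W5NS. AGL42, another QC marker, differed less, with 20.4 FPKM in W5S and 14.9 FPKM in C6. The 2 cortex markers were low in both populations and summed to 12.5 FPKM in C6 and 2.5 FPKM in W5S.

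Loci were compared where C6 and W5S averaged at least 5 FPKM, which left 14112. A locus near 0 in 1 population passed this filter only through the other, so its direction was fixed by the filter. The log2 ratio is log2((C6 + 1)/(W5S + 1)), a scale that understates differences of low genes. A locus was counted as different at 4-fold or more on this scale, a log2 ratio of 2 or beyond. By this rule 841 loci (5.96% of those compared) differed, 613 (4.34%) higher in C6 and 228 (1.62%) higher in W5S. The median log2 ratio of all loci compared was 0.14, with a lower quartile of -0.40 and an upper quartile of 0.68, so a value of 0.14 rather than 0 is the centre against which genes and lists stand. The FPKM values summed to 957091 in C6 and 794518 in W5S. With both populations scaled to the same sum over nuclear loci, 424 loci were higher in C6 and 327 in W5S, so that the share of differences higher in C6 went from 72.9% to 56.5%. Among the 841 loci past 4-fold, 780 were protein-coding and 41 were listed at 0 in 1 of the 2 populations. Of these 41, 30 were at 0 in W5S and 11 in C6. Over all 33201 loci, 8239 were listed at 0 in W5S and 5849 in C6. Values of at least 5 FPKM were read at 13388 loci in W5S and 14164 in C6. The part of this difference in the counts past 4-fold was not tested.

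**Figure D1:**
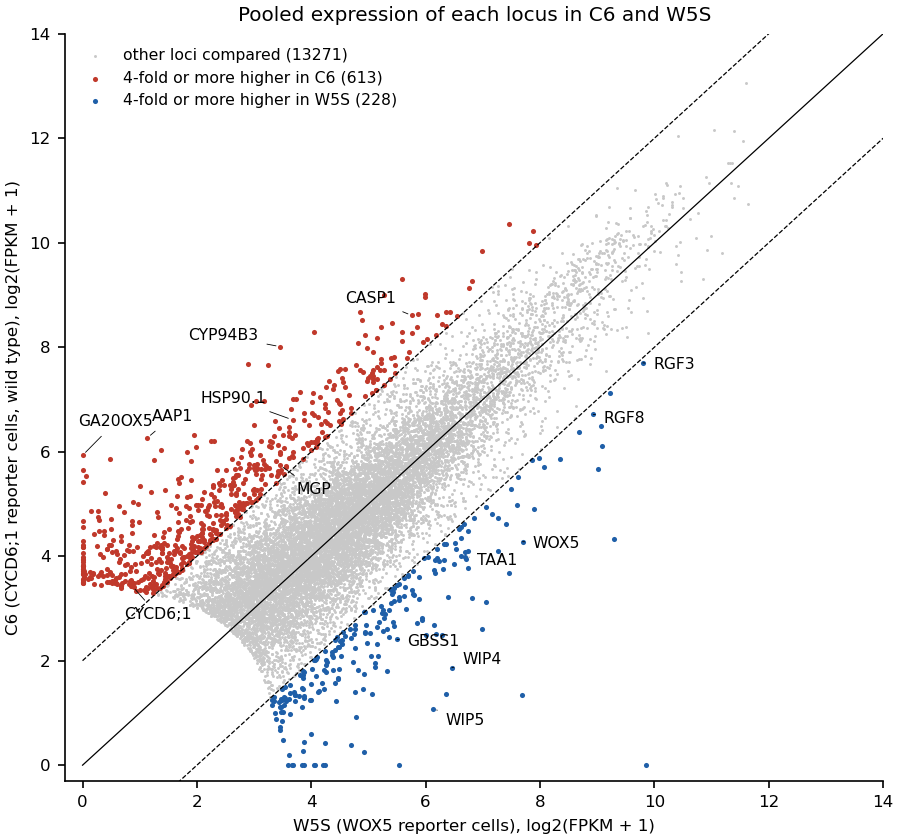
Each point is 1 locus with its pooled value in W5S (x axis) and C6 (y axis), both as log2(FPKM + 1), for the 14112 loci compared. Dashed lines mark 4-fold, red points the 613 loci higher in C6 and blue points the 228 loci higher in W5S, with selected genes named. The red points lie mostly where W5S is low, and the blue points include WIP4, WIP5 and the RGF peptide genes.

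The regulators of the QC and the stem cell niche lay mostly on the W5S side. Of 26 listed, 22 passed the filter on the mean, none was 4-fold higher in C6 and 6 were 4-fold higher in W5S, with a list median of -1.33. These 6 were WOX5, by whose reporter W5S was sorted, the zinc finger genes WIP5, WIP4 and WIP2, MYB56 and the coactivator gene GIF3. WIP5 (AT1G51220) read 68.8 FPKM in W5S and 1.12 FPKM in C6, a log2 ratio of -5.04. WIP2 (AT3G57670) read 56.4 FPKM in W5S and 5.56 FPKM in C6. These 3 WIP genes are together required for the embryonic start of the root meristem. In WIP5, WIP4 and WIP2 the GFP-negative cells of the WOX5 line lay close to W5S (WIP5 57, WIP4 68.7 and WIP2 51.5 FPKM in W5NS), and w5C6 lay below C6 (0.287, 1.51 and 3.21 FPKM). MYB56, which holds back QC division, behaved otherwise. It read 50.8 FPKM in W5S and 17.6 FPKM in W5NS, against 11.2 FPKM in C6 and 12.3 FPKM in w5C6.

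The PLETHORA genes, AP2-type factors whose dose sets stem cell and meristem identity, stayed short of 4-fold. PLT1 read 172 FPKM in W5S and 45.5 FPKM in C6 (log2 ratio -1.90), and BBM read 61.6 and 16.1 FPKM (-1.87). PLT2 read 78.4 FPKM in W5S and 30.2 FPKM in C6, and PLT3 119 and 56.8 FPKM. Each of these 4 genes was thus higher in W5S, and each read between 55.9 and 151 FPKM in W5NS. Of the list, AN3 and GIF2 of the GIF coactivator family lay on the C6 side, AN3 with 184 FPKM in C6 and 89 FPKM in W5S and GIF2 with 49.7 and 33.8 FPKM. Their relative GIF3 went the other way, with 8.89 FPKM in W5S and 1.36 FPKM in C6. GRF4, a growth-regulating factor of the family that GIF proteins bind, read 24.5 FPKM in C6 and 0.82 FPKM in W5S.

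Other homeodomain genes of the WOX family were split. WOX11, known from the start of adventitious roots, read 60.3 FPKM in W5S and 6.09 FPKM in C6, with 54 FPKM in W5NS and 7.88 FPKM in w5C6. WOX7 (AT5G05770), the closest relative of WOX5, showed the reverse, with 28 FPKM in C6 and 0.107 FPKM in W5S. It read 29.1 FPKM in w5C6 and 5.7 FPKM in W5NS, so it was high in both populations sorted by the CYCD6;1 reporter. Of the 15 WOX genes only 5 passed the filter on the mean.

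A set of genes best known from the shoot meristem and organ boundaries, grouped after their values were seen, was also higher in W5S. Of 18 such genes 6 passed the filter and 5 were past 4-fold, all in this direction. These 5 read below 5 FPKM in C6 and passed the filter only through W5S. Their shared direction is therefore no separate evidence. STM, the KNOX factor that maintains the shoot meristem, read 26.5 FPKM in W5S and 0.894 FPKM in C6. HB17, a homeodomain leucine zipper gene, read 29.2 and 0.193 FPKM, and LAS, a GRAS factor of axillary meristems, 17.8 and 0.334 FPKM. AGO10, an Argonaute protein that sequesters miR165/166, read 38.9 FPKM in W5S and 2.5 FPKM in C6, and TEL1, an RNA-binding protein gene, 71.2 and 4.66 FPKM. All 5 lay between C6 and W5S in W5NS, where STM read 20.2 FPKM, HB17 18 FPKM, LAS 7.85 FPKM, TEL1 39.2 FPKM and AGO10 24.5 FPKM. The summed level of the 18 genes was 199 FPKM in W5S, 127 FPKM in W5NS, 42.9 FPKM in w5C6 and 21.5 FPKM in C6.

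The RGF peptides are secreted, tyrosine-sulfated signals that keep PLT proteins in place through the receptor kinases RGI1 to RGI5. Of 17 listed genes of this pathway 14 passed the filter, 3 were 4-fold higher in W5S and none in C6, with a list median of -1.05. The 3 were peptide genes. RGF1 read 70.2 FPKM in W5S and 5.41 FPKM in C6, RGF3 889 and 207 FPKM, and RGF8 487 and 104 FPKM. The receptors differed less: RGI1 read 26.6 FPKM in W5S and 11.7 FPKM in C6, and RGI4 read 8.74 and 8.65 FPKM. TPST, the enzyme that sulfates these peptides, read 35.6 FPKM in W5S and 12.5 FPKM in C6. RGF4 was level, with 85.9 FPKM in C6 and 83.6 FPKM in W5S. The GFP-negative cells of the WOX5 line were close to W5S, with RGF1 at 71.6 FPKM in W5NS. The list summed to 1998 FPKM in W5S and 1924 FPKM in W5NS, against 582 FPKM in C6 and 489 FPKM in w5C6.

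**Figure D2:**
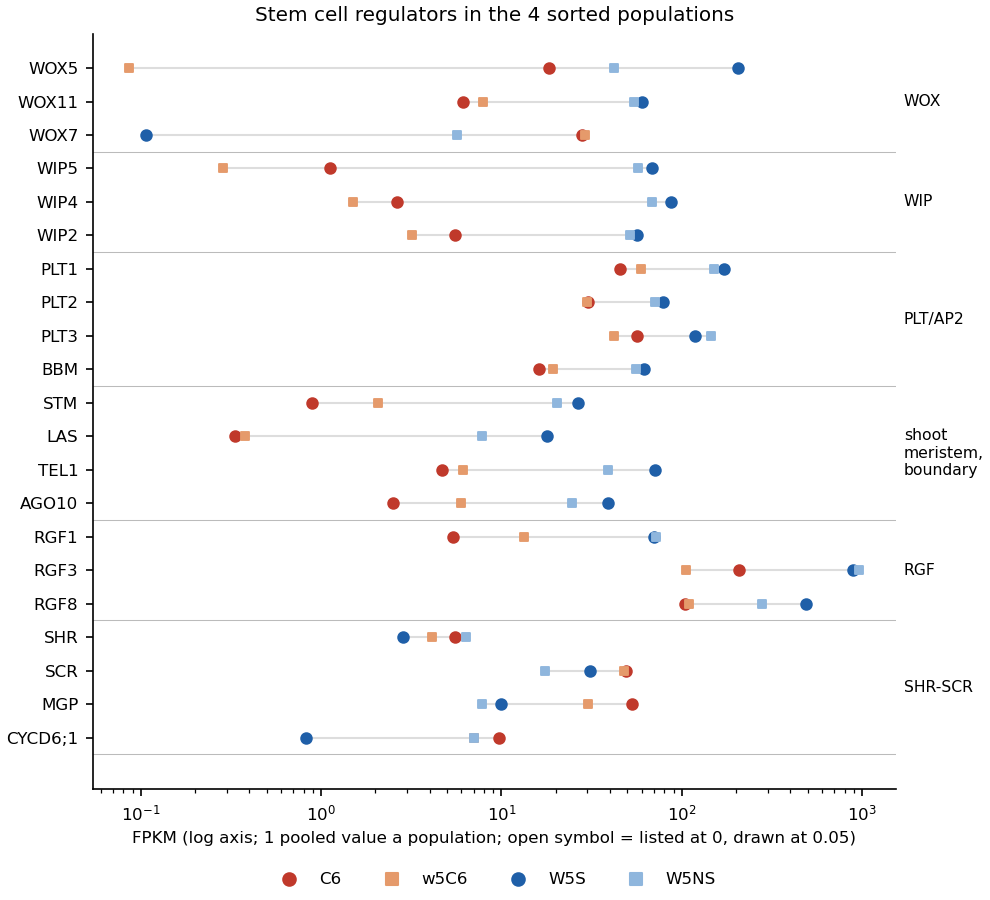
Pooled FPKM (log axis) of stem cell regulators in the 4 populations, with circles for the compared C6 (red) and W5S (blue) and squares for w5C6 (orange) and W5NS (light blue). WIP5, WIP4 and WIP2 sit at 51.5 to 86.8 FPKM in both WOX5 line populations and at 5.56 FPKM or less in both CYCD6;1 reporter populations.

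The SHR and SCR pathway leaned toward C6. Of 14 listed genes 10 passed the filter and all 10 had a ratio above 0, with a median of 0.77. Of all 14112 loci compared 8038 were above 0. Only MGP and CYCD6;1 reached 4-fold, and C6 was sorted by the reporter of CYCD6;1. MGP, a BIRD zinc finger protein and direct target of SHR and SCR, read 52.7 FPKM in C6 and 9.91 FPKM in W5S. It read 30.3 FPKM in w5C6 and 7.76 FPKM in W5NS. The related zinc finger genes JKD (32.4 FPKM in C6 and 20.3 FPKM in W5S) and NUC (20.7 and 12.7 FPKM) differed by less than 4-fold, as did SCR with 48.9 and 30.9 FPKM. SHR itself, which is transcribed in the stele and moves as a protein, was below the filter with 5.53 FPKM in C6 and 2.86 FPKM in W5S. MYB36, the factor that starts Casparian strip formation downstream of SCR, read 31.7 FPKM in C6 and 16.7 FPKM in W5S.

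Genes that build the Casparian strip lay on the C6 side. Of 17 listed 15 passed the filter, 9 were 4-fold higher in C6 and none was 4-fold higher in W5S, with a median of 2.19. CASP1 and CASP2, membrane scaffolds of the strip, read 389 and 174 FPKM in C6 against 53.1 and 31.8 FPKM in W5S. PER64, a peroxidase of strip lignin, read 188 FPKM in C6 and 27.9 FPKM in W5S, and the dirigent gene ESB1 60.1 and 6.69 FPKM. The barrier signalling genes were on the same side, with the receptor gene SGN3 at 18.8 and 3.34 FPKM, the kinase gene SGN1 at 43.5 and 7.72 FPKM and the peptide gene CIF2 at 12.6 and 2.35 FPKM. The 2 members below 0 were TPST (above), with a log2 ratio of -1.44, and CASP5, with 6.79 FPKM in C6 and 10.2 FPKM in W5S. The summed level of the list was 1262 FPKM in C6, 289 FPKM in W5S, 330 FPKM in W5NS and 158 FPKM in w5C6, so C6 alone was high. No member of the list was at 0 in W5S.

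Wall gene families that overlap with other lists were on the same side. ESB1 and PER64 (above) are counted again here among the dirigent and peroxidase genes, and the peroxidase RHS19 is counted again below. Of 15 dirigent genes compared 5 were 4-fold higher in C6 and none in W5S (median 1.51), among them AT3G55230 with 192 FPKM in C6 and 21.7 FPKM in W5S and AT4G13580 with 67.4 and 8.86 FPKM. Of 33 class III peroxidase genes compared, 12 were 4-fold higher in C6 and none in W5S. They fell into different patterns across the other populations. AT5G66390 read 333 FPKM in C6, 36.3 FPKM in W5S and 8.78 FPKM in w5C6. AT4G26010 read 290 FPKM in C6, 34.7 FPKM in W5S and 306 FPKM in w5C6, and AT1G34510 read 24.2, 0.979 and 30.8 FPKM. The first pattern resembles that of the CASP genes and the second that of the root hair genes described next. Suberin genes were mostly low, with 3 of 19 past the filter and MYB92, a MYB activator of suberin synthesis, at 17 FPKM in C6 and 1.61 FPKM in W5S.

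Root hair genes were also higher in C6, although the hair is an epidermal structure. Of 18 genes named root hair specific (RHS), a family added after values were seen, 17 passed the filter, 12 were 4-fold higher in C6 and none was in W5S, with a median of 2.78. RHS19, a peroxidase gene, read 398 FPKM in C6 and 57.2 FPKM in W5S. RHS7, the proline-rich wall protein gene also called PRP1, read 365 and 28.5 FPKM, and RHS14 read 36.7 and 1.29 FPKM. All 3 were higher still in w5C6 (499, 646 and 39.5 FPKM) and intermediate in W5NS (145, 146 and 12.3 FPKM), so W5S was the lowest population. The list of epidermis and root hair markers gave a mixed picture (17 of 19 compared, median 0.20). The wall protein gene LRX1 and the hair growth factor gene RSL2 were 4-fold higher in C6, at 106 against 21.7 FPKM and 16 against 2.27 FPKM. RHD6, the bHLH factor that starts hair formation, was 4-fold higher in W5S, at 37.7 FPKM against 6.07 FPKM in C6. WER, a marker of young epidermis, read 33.5 FPKM in W5S and 14.9 FPKM in C6, and the hair expansin gene EXPA7 93 FPKM in C6 and 61 FPKM in W5S. Summed over the 19 markers the level was 964 FPKM in C6, 594 FPKM in W5S, 547 FPKM in W5NS and 1421 FPKM in w5C6, and no marker was at 0 in any population. The part of epidermal cells in the C6 sort was not tested.

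Most genes of wall loosening and wall structure past 4-fold were higher in C6 as well. The expansin genes leaned to neither side. Of 15 compared 1, EXPA11, was 4-fold higher in C6, 7 were above 0 and 8 below, with a median of -0.05. Of 20 xyloglucan endotransglucosylase XTH genes compared, XTH12, XTH13, XTH14 and XTH26 were 4-fold higher in C6 and XTH5 was 4-fold higher in W5S. XTH14 read 519 FPKM in C6 and 62.6 FPKM in W5S, XTH26 64.6 and 1.6 FPKM, and XTH5 51.3 and 267 FPKM. XTH12, XTH13 and XTH14 are close copies that may share reads. Among genes annotated as extensin or proline-rich, a set added after values were seen that also takes in some late embryogenesis abundant glycoproteins, 24 of 99 compared were 4-fold higher in C6 and 2 in W5S. RHS7 and LRX1 (above) are counted again among them. EXT3, a major extensin of the growing wall, read 1313 FPKM in C6 and 175 FPKM in W5S. HA7 (AT3G60330), a plasma membrane proton pump, read 56.1 FPKM in C6 and 1.39 FPKM in W5S, and IRT2, an iron transporter of the epidermis, 30.8 and 0.962 FPKM. Both were near their C6 level in w5C6, at 58.2 and 39.3 FPKM. They come from lists of pump and iron uptake genes added after values were seen. Of 5 pump genes compared HA7 alone was past 4-fold, with a median of 0.34 and 1 gene below 0. Of 14 iron uptake genes compared, HA7 included, 4 were 4-fold higher in C6 and 3 were below 0.

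Root cap and columella markers leaned toward W5S. Of 17 listed 16 passed the filter, 7 were 4-fold higher in W5S and none in C6, with a median of -0.83. They included ARL2 (33.7 FPKM in W5S and 2.68 FPKM in C6), LZY2 (36.2 and 7.29 FPKM) and LZY4 (196 and 44.9 FPKM), which act in gravity sensing of the columella, the auxin carrier gene PIN3 (72.8 and 16.6 FPKM) and FEZ (24.9 and 4.39 FPKM), a NAC factor of the stem cells of the root cap. The markers of the mature cap named here stayed short of 4-fold and were split. The NAC factor genes BRN1 and BRN2 read 146 and 126 FPKM in W5S against 99.7 and 73.7 FPKM in C6, and CEL5, a cellulase gene of shedding cap cells, read 696 FPKM in C6 and 244 FPKM in W5S. The summed level of the list was 1115 FPKM in C6 and 1145 FPKM in W5S, with 910 FPKM in W5NS and 359 FPKM in w5C6. In W5NS the genes of columella and cap stem cells were at or above W5S, with PIN3 at 133 FPKM, FEZ at 52.8 FPKM and ARL2 at 34.9 FPKM. The part of cap cells in either sort was not tested.

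Starch metabolism, which fills the sedimenting plastids of the columella, had a median of -0.76 over 25 of 31 listed genes, with 3 genes 4-fold higher in W5S and none in C6. GBSS1, the starch synthase of amylose, read 44.2 FPKM in W5S and 4.3 FPKM in C6. APL4, a subunit of ADP-glucose pyrophosphorylase, read 53.9 and 12.2 FPKM, and the branching enzyme gene SBE2.2 40.8 and 9.22 FPKM. BAM1, a beta-amylase of starch breakdown, read 595 FPKM in C6 and 240 FPKM in W5S. In W5NS GBSS1 read 56.3 FPKM. The starch list summed to 1155 FPKM in C6, 1147 FPKM in W5S, 1141 FPKM in W5NS and 666 FPKM in w5C6. Of the vascular markers 8 of 35 passed the filter. ATHB8, a homeodomain factor of procambium, read 29.9 FPKM in W5S and 5.45 FPKM in C6, and XCP2, a protease of xylem vessels, 23.4 FPKM in C6 and 3.28 FPKM in W5S. The vascular list summed to 155 FPKM in C6 and 174 FPKM in W5S, with 3 markers at 0 in C6 and 2 in W5S.

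**Figure D3:**
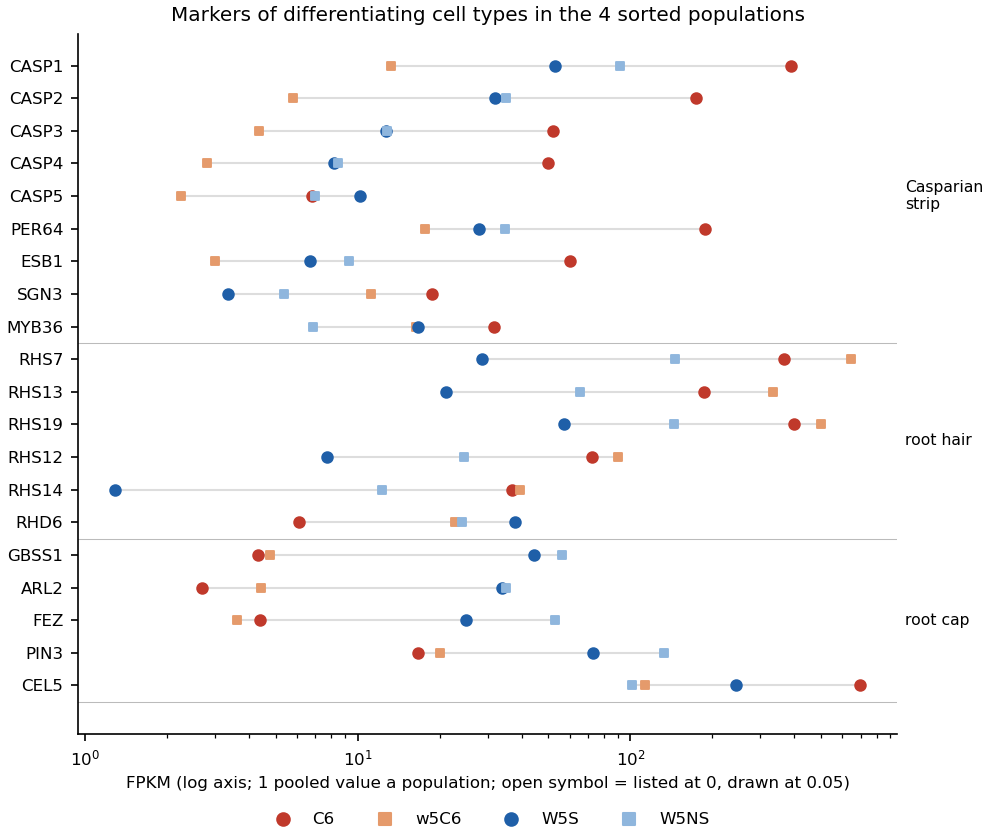
Pooled FPKM (log axis) of Casparian strip, root hair and root cap genes in the 4 populations, drawn as circles for C6 (red) and W5S (blue) and squares for w5C6 (orange) and W5NS (light blue). CASP1 is highest in C6 at 389 FPKM and lowest in w5C6, the RHS genes are lowest in W5S, and GBSS1, ARL2 and FEZ are low in both CYCD6;1 reporter populations.

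Genes past 4-fold in the lists of auxin synthesis, transport and response were nearly all on the W5S side. The list medians were 0.02, -0.14 and -0.15. Over all loci compared 1.62% were 4-fold higher in W5S and 4.34% in C6. The auxin-responsive SAUR genes, listed apart, had 4 of 19 compared higher in C6 and 2 in W5S. In auxin synthesis 13 of 21 genes passed the filter and 3 were 4-fold higher in W5S. TAA1, which makes the auxin precursor indole-3-pyruvate, read 102 FPKM in W5S and 14.9 FPKM in C6. CYP79B2 and CYP79B3, enzymes of indole-3-acetaldoxime that feed indole glucosinolates as well as auxin, read 594 and 236 FPKM in W5S against 139 and 28.8 FPKM in C6. Most members were level, such as the tryptophan synthase gene TSB1 with 224 FPKM in C6 and 214 FPKM in W5S, and the list median was 0.02. In auxin transport 2 of 20 genes compared were 4-fold higher in W5S, the efflux carrier gene PIN3 (above) and the influx carrier gene LAX2, with 101 FPKM in W5S and 23.5 FPKM in C6. The carrier genes AUX1 and PIN2 differed little, with 101 and 79 FPKM in C6 against 115 and 74.2 FPKM in W5S.

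Among 42 auxin receptor and response genes compared, 4 were 4-fold higher in W5S and 1 in C6. ARF5, the response factor MONOPTEROS that drives root initiation in the embryo, read 180 FPKM in W5S and 38.1 FPKM in C6. The other 3 were Aux/IAA genes, IAA20 (152 and 16.1 FPKM), IAA30 (70.3 and 11.9 FPKM) and IAA33 (192 and 30.7 FPKM). IAA20, IAA30 and IAA33 belong to a group of Aux/IAA proteins without the degron that auxin receptors bind. IAA31, a relative of IAA20 and IAA30, was the gene past 4-fold in the other direction, with 15.5 FPKM in C6, 0.517 FPKM in W5S and 16.5 FPKM in w5C6. In W5NS the 4 genes high in W5S read 117 FPKM (ARF5), 172 FPKM (IAA20), 79.2 FPKM (IAA30) and 382 FPKM (IAA33). The glucosinolate list, with 20 of 36 genes compared and a median of -0.52, held besides the CYP79B genes the sulfotransferase gene SOT17, at 40.2 FPKM in W5S and 6.88 FPKM in C6. TGG4, a root myrosinase, was high in both compared populations (1329 FPKM in W5S and 980 FPKM in C6) and low in the others (117 FPKM in W5NS and 165 FPKM in w5C6).

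Jasmonate genes lay on the C6 side. Of 42 listed 36 passed the filter, 8 were 4-fold higher in C6 and none was 4-fold higher in W5S, with a median of 0.65. They cover synthesis, activation and breakdown of the hormone. The allene oxide cyclase genes AOC1 and AOC2, near-identical copies that may share reads, read 30.2 and 41.1 FPKM in C6 against 0.556 and 2.2 FPKM in W5S. JAR1, which conjugates jasmonate to isoleucine, read 95.7 and 21.3 FPKM. Breakdown enzymes were among them, with CYP94B3 at 257 and 9.96 FPKM, CYP94B1 at 87.9 and 11.3 FPKM and the jasmonate oxidase genes JOX3 and JOX4 at 63.1 and 162 FPKM in C6 against 2.54 and 18.9 FPKM in W5S. JAZ8, a repressor of the response, read 37.5 and 6.86 FPKM. The receptor gene COI1 (9.09 and 9.34 FPKM) and MYC2, the main factor of the response (120 FPKM in each), were level, and AOC4 read 124 FPKM in W5S and 40.6 FPKM in C6. In w5C6 these genes were below their C6 level, for example CYP94B1 at 30.5 FPKM, JOX4 at 26.5 FPKM and JAR1 at 59.9 FPKM.

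Of the other hormones, gibberellin had 3 of 19 genes compared 4-fold higher in C6 and none in W5S. GA20OX5 (AT1G44090), an oxidase of gibberellin synthesis, had the highest ratio of all single-ID loci compared, at 60 FPKM in C6, 0.619 FPKM in w5C6, 2.64 FPKM in W5NS and listed at 0 in W5S. GA2OX2, which inactivates gibberellins, read 12.5 FPKM in C6 and 0.344 FPKM in W5S, and GASA14, a gibberellin-regulated peptide gene, 24.8 and 2.5 FPKM. Cytokinin had 1 of 27, the phosphotransfer gene AHP1 with 145 FPKM in C6 and 34.2 FPKM in W5S, and brassinosteroid none of 15. Among ethylene genes the receptor gene ERS2 was 4-fold higher in W5S, at 18.3 FPKM against 2.91 FPKM in C6. Abscisic acid had 2 of 25, both higher in C6, the catabolic gene CYP707A1 (78.6 and 10.4 FPKM) and the response gene RD29A (99.9 and 16.3 FPKM). Over all loci compared 5.96% were past 4-fold. The shares of the abscisic acid (8.0%) and cytokinin (3.7%) genes lay near it.

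**Figure D4:**
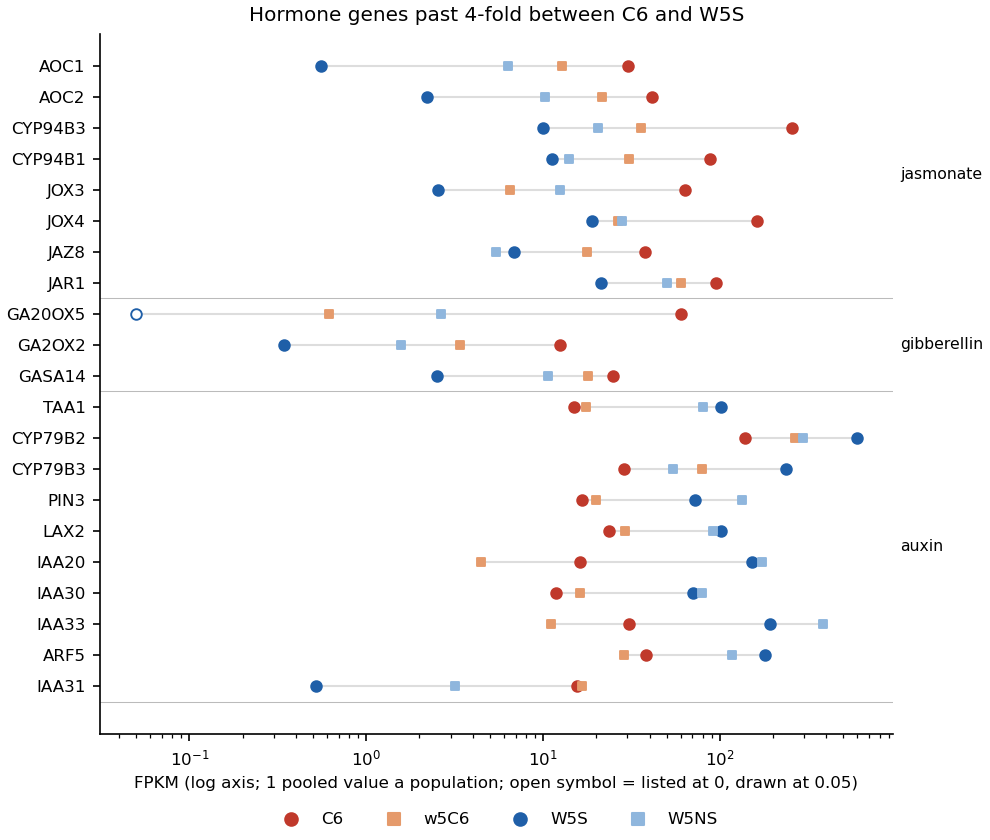
Pooled FPKM (log axis) of the jasmonate, gibberellin and auxin genes past 4-fold between C6 (red circles) and W5S (blue circles), with w5C6 (orange squares) and W5NS (light blue squares). The jasmonate genes are highest in C6. Of the auxin genes drawn, which leave out the SAUR genes, only IAA31 is higher in C6 than in W5S. The open circle marks GA20OX5, listed at 0 in W5S.

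Cell cycle genes differed little. None of 25 DNA replication genes compared was past 4-fold (median 0.33), and of 36 mitotic genes only CYCA3;1, an A-type cyclin gene, was, with 9.59 FPKM in C6 and 1.33 FPKM in W5S (list median 0.11). PCNA1, the sliding clamp of DNA polymerase, read 72.6 FPKM in C6 and 22.2 FPKM in W5S, and CYCB1;2, a mitotic cyclin gene, 51.9 and 29.8 FPKM. CYCD6;1, by whose reporter C6 was sorted, was the sole gene past 4-fold among 23 D-type cyclin, retinoblastoma pathway and CDK inhibitor genes compared. This is a share of 4.35%, against 5.96% over all loci compared. RBR1, the plant retinoblastoma protein that SCR binds, read 23.8 FPKM in C6 and 27.4 FPKM in W5S, and the CDK inhibitor gene SIM 50.8 and 32.6 FPKM.

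Chaperone genes of the heat response were higher in C6. Of 24 small heat shock and chaperone genes compared, 14 were 4-fold higher in C6 and none in W5S, with a median of 2.33. The small heat shock gene HSP17.6II read 312 FPKM in C6 and 15.6 FPKM in W5S, HSP90.1 96.8 and 11.7 FPKM, and HSP101, which dissolves protein aggregates, 91.1 and 16.9 FPKM. Their summed level was 3672 FPKM in C6, 1091 FPKM in W5S, 1242 FPKM in W5NS and 1430 FPKM in w5C6, so the second population of the CYCD6;1 reporter did not share it. The small heat shock genes are close copies and may share reads. Of 21 wound and touch genes compared all had a ratio above 0 (median 0.70), but only ZAT6, a zinc finger gene, and TCH3, a calmodulin-like gene, were past 4-fold, at 40.3 against 4.96 FPKM and 66.4 against 13.5 FPKM. The list summed to 2641 FPKM in C6 and 1505 FPKM in W5S. Cells were released by protoplasting in all populations, and the part of this stress in the jasmonate, heat and wound values was not tested. Nuclear ribosomal protein genes had a median of 0.62, with 273 of 304 compared above 0, 3 of them 4-fold higher in C6 and 1 gene 4-fold higher in W5S. Over all 14112 loci compared 8038 were above 0 and 5.96% were past 4-fold. The mitochondrion-encoded loci summed to 5191 FPKM in C6, 1930 FPKM in W5S, 1550 FPKM in W5NS and 5766 FPKM in w5C6. Most of this was 1 locus, ATMG00030, with 4220 FPKM in C6 and 1369 FPKM in W5S. None of the 25 mitochondrial loci compared was past 4-fold.

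**Figure D5:**
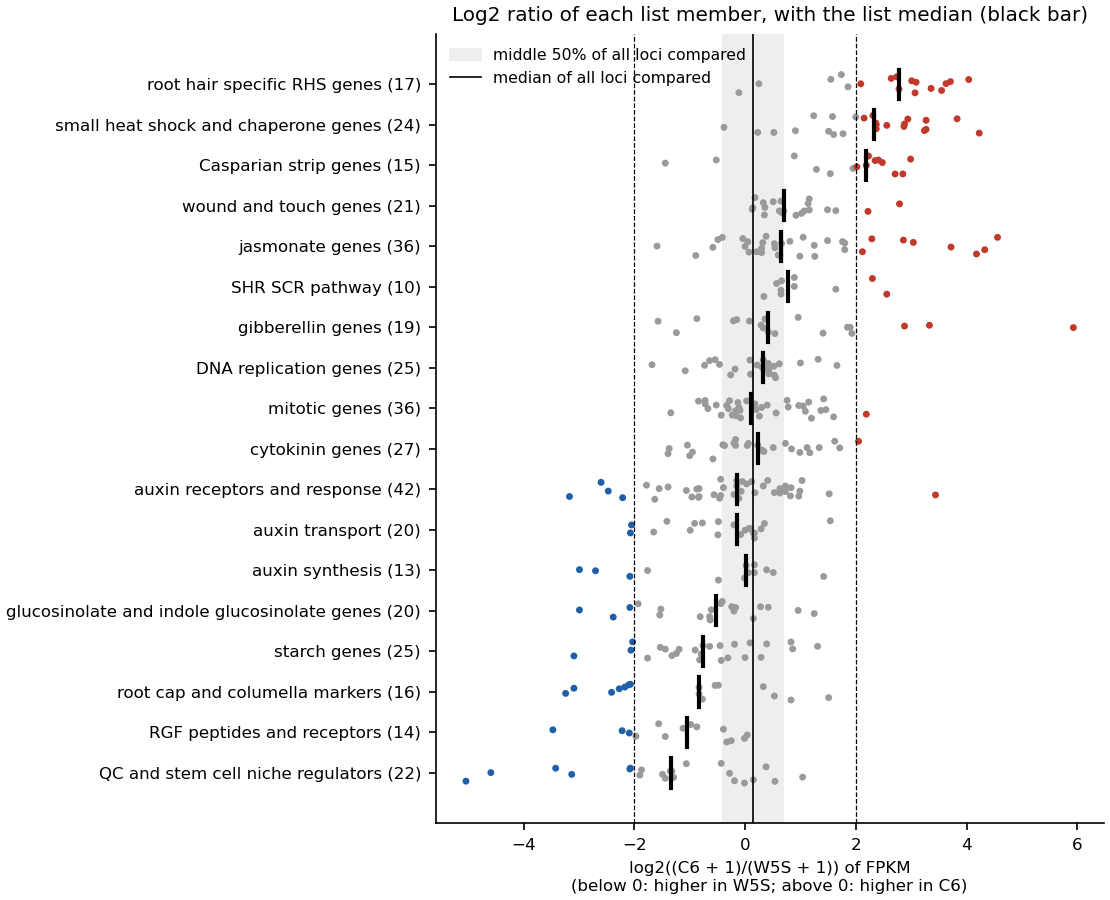
Log2 ratio of C6 over W5S on the FPKM + 1 scale (x axis) for each gene compared in 18 lists (number compared in brackets). Black bars are list medians, the grey band is the middle 50% of all loci compared, dashed lines mark 4-fold, and red and blue points are genes past it. The medians run from -1.33 for the QC and niche regulators to 2.78 for the RHS genes.

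Transporters and peptide signals supplied some of the largest single differences. The amino acid permease gene AAP1 read 75.8 FPKM in C6 and 1.19 FPKM in W5S, with 41 FPKM in w5C6 and 16.4 FPKM in W5NS, and its relative AAP5 read 13.6 FPKM in C6 and 1.9 FPKM in W5S. The amino acid exporter genes UMAMIT33 and UMAMIT34 read 9.64 and 16.2 FPKM in C6 against 0.863 and 0.841 FPKM in W5S, while UMAMIT8 read 19.9 FPKM in W5S and 3.22 FPKM in C6. NPF4.3 (AT1G59740), of the nitrate and peptide transporter family, was furthest from 0 of all protein-coding single-ID loci compared, on the W5S side, with 205 FPKM in W5S and 1.53 FPKM in C6 (log2 ratio -6.35). It read 32.9 FPKM in W5NS and 6.07 FPKM in w5C6. The glucosinolate importer gene NPF2.10 read 169 FPKM in C6 and 30.9 FPKM in W5S. Of 22 aquaporin genes compared 20 had a ratio above 0 (median 0.94), and the tonoplast genes TIP1;1 and TIP2;3 were 4-fold higher in C6, at 409 against 85.4 FPKM and 301 against 29.8 FPKM. Of all 14112 loci compared 8038 had a ratio above 0. Of 12 RALF peptide genes compared, a family added after values were seen, RALFL8, RALFL9, RALFL15 and RALFL27 were 4-fold higher in C6. They were low in W5S and passed the filter only through C6, so their shared direction is no separate evidence. RALFL8 read 28.1 FPKM in C6 and 0.202 FPKM in W5S, and RALFL9, its neighbour by number, 22.5 FPKM in C6 and was listed at 0 in W5S. Both were low in w5C6, at 1.29 and 0.549 FPKM. CLE1, of the CLE peptide family, read 34.4 FPKM in C6 and 2.15 FPKM in W5S. PMAT1, an acyltransferase of phenolic glucosides, read 57.3 FPKM in C6 and 0.402 FPKM in W5S.

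Transcription factor genes were past 4-fold in both directions. Over loci of every kind past 4-fold, 72.9% were higher in C6. Of all loci compared, 4.34% were 4-fold higher in C6 and 1.62% in W5S. Of 58 listed AP2/ERF genes compared 9 were higher in C6 and 3 in W5S. RAP2.9, an AP2/ERF gene outside that list, read 39.5 FPKM in C6 and 0.999 FPKM in W5S. Within the list ABR1 read 66.9 FPKM in C6 and 2.95 FPKM in W5S, and ERF71, a gene of the hypoxia response, 11.9 and 0.0928 FPKM. Of 30 R2R3 MYB genes 5 were higher in C6 and 1, MYB56, in W5S. MYB102, a wound-responsive factor, read 11.5 FPKM in C6 and 0.141 FPKM in W5S. Of 38 NAC genes 5 were higher in C6 and 2 in W5S, with NAC044, a factor of the DNA damage response, at 12.2 and 0.0142 FPKM and NAC057 at 0.516 FPKM in C6 and 14.9 FPKM in W5S. Of 37 WRKY genes 3 were higher in C6 and 1 in W5S. Besides RHD6 and RSL2 (above), the bHLH gene SCRM2, known from stomatal development, read 37.4 FPKM in W5S and 4.92 FPKM in C6. Of 16 GRAS genes only LAS was past 4-fold.

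AT3G17100, annotated as a DNA-binding transcription factor, was among the 12 highest single-ID loci, with 45.6 FPKM in C6 and 0.046 FPKM in W5S. It read 46.6 FPKM in w5C6 and 0.495 FPKM in W5NS. MRD1 was among the 12 lowest, with 81.2 FPKM in W5S and 1.56 FPKM in C6, and again W5NS stood near W5S at 71.4 FPKM and w5C6 near C6 at 1.79 FPKM.

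Loci without a protein product made up a small part of the differences and were unevenly recorded. Of 30 snoRNA, snRNA and tRNA loci compared, 11 were 4-fold higher in C6 and 7 in W5S, and of these all but SNOR77 were listed at 0 in 1 of the 2 populations. The 18S ribosomal RNA locus AT3G41768 was listed at 0 in C6 and at 926 FPKM in W5S, 749 FPKM in W5NS and 943 FPKM in w5C6. A zero of this kind in a table without counts can be a failed estimate. Among microRNA precursors MIR319b read 42.7 FPKM in W5S and 7.79 FPKM in C6, and MIR159b 13.5 FPKM in C6 and 0.712 FPKM in W5S.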

How the data were processed

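Protoplasts of root tips from 5-day-old seedlings were sorted by GFP into 4 populations of 4 libraries each. RNA was amplified by SMART-Seq, a method for very low inputs in which rare transcripts drop out, and this bears on values of 0. HISAT2 and Cufflinks appear in the submitters' processing notes. Nothing is stated on their versions, the build or the annotation in the sources used here, and no coordinates or sequences are printed. The authors deposited 1 FPKM value per locus and population, pooled over libraries. The header names no unit, and FPKM is inferred from that pipeline. Depth per library is unknown, so no intervals are given and replicate libraries could not be compared. The table also holds the authors' log2 folds and q-values for 6 pairs of populations, which were not used.

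Names and products came from the TAIR10.1 gene table, which held 32756 of the 33493 gene IDs. The 282 loci naming several IDs were counted once, and overlapping genes and close copies cannot be told apart. Ratios used a pseudocount of 1 FPKM, a minimum mean of 5 FPKM and a 4-fold rule, with no test. The members, lists and rule were chosen with earlier results of these data known. There were 57 lists at the start and 11 added after values were seen, and 21 of their symbols were unmatched. Named genes are the 12 highest and 12 lowest single-ID loci, the members of each list past 4-fold (4 per direction in lists of over 8) and up to 3 others of highest mean, WOX5, CYCD6;1, SHR, SCR, AN3 and the cell type markers. Only part of these is printed, and any gene outside this rule was picked with its values in view. Alternatives were other pseudocounts, folds, filters and scalings. The work was done in Python 3.11.15 with pandas 2.3.3 and NumPy 2.4.6.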

Additional observations from a re-analysis of the deposited data

How the results depend on the processing

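The counts of loci past the fold rule depended on its settings. With a pseudocount of 10 FPKM 133 loci were higher in C6 and 42 in W5S. A 2-fold rule gave 2148 and 1238, an 8-fold rule 172 and 50, and a mean of at least 20 FPKM 252 and 104. The other 7 planned settings and both added after seeing the data (protein-coding loci only, 577 and 203, and loci at 0 left out, 583 and 217) stayed within 1.5-fold of 613 and 228. Centred on the median ratio the counts were 525 and 275. Of 66 lists with a median, 30 lay at least 0.5 from the median of all loci, and 17 did with no filter on low values, where loci near 0 in both populations pull medians toward 0. The laccase median went from 0.85 to -0.62 on the nuclear scaling, where the set of genes passing the filter changed as well. Of 215 named loci past 4-fold, 76 stayed past it with a pseudocount of 10 FPKM, 208 after centring and 195 on the nuclear scaling, and none changed sign. No paired analysis was possible because the columns carry no replicate numbers and the results come from no test. For the same reason no replicate could be left out.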

Other observations

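Further gene groups held loci past 4-fold. Of all loci compared, 4.34% were 4-fold higher in C6 and 1.62% in W5S. Of 37 late embryogenesis abundant loci compared 6 were higher in C6 and 4 in W5S, of which 4 and 1 are also among the extensin and proline-rich genes counted above. AT3G53040, of this family, read 132 FPKM in W5S, 185 FPKM in W5NS, 15.1 FPKM in w5C6 and 7.68 FPKM in C6. Of 31 lipid transfer protein genes 5 were higher in C6 and 1 in W5S, with AT2G45180 at 204 FPKM in C6, 6.45 FPKM in W5S and 361 FPKM in w5C6. Of 19 SAUR genes, small auxin-responsive genes grouped after values were seen, 4 were higher in C6 and 2 in W5S. SAUR51 read 63 FPKM in W5S and 4.59 FPKM in C6, and SAUR50 17.6 FPKM in C6 and 0.416 FPKM in W5S. Of 30 glutathione transferase genes, which detoxify reactive compounds, 4 neighbouring tau-class genes (GSTU3, GSTU4, GSTU5 and GSTU6) were higher in C6 and none in W5S. GSTU5 read 1193 FPKM in C6 and 233 FPKM in W5S, and GSTU4 78.8 and 2.87 FPKM.

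Some loci were high in W5S and low in the other 3 populations. AT5G53380, annotated as an O-acyltransferase, read 125 FPKM in W5S against 5.81 FPKM in W5NS, 5.13 FPKM in C6 and 2.71 FPKM in w5C6. AT5G05530, annotated as a RING/U-box protein, read 24.9 FPKM in W5S, 1.32 FPKM in W5NS, 0.959 FPKM in w5C6 and 0.311 FPKM in C6. Both are protein-coding loci among the 12 lowest and were singled out for this pattern after their values were seen. NAC057 was likewise highest in W5S, at 14.9 FPKM in W5S, 2.98 FPKM in w5C6, 0.516 FPKM in C6 and listed at 0 in W5NS.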
